A study of Mus with 6 samples.

Results

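Trem2, Spp1, Apoe, Gpnmb, Cd9, Fabp5 and Lgals3 are 7 genes commonly used together to mark lipid-associated macrophages. They were taken by a list of Ensembl IDs whose rule uses no measured value, though the list was proposed with earlier results of these data known. All 7 of 7 were present among the 15646 genes of the count table and among the 14348 genes tested. They were compared between pancreatic tumors that had grown in obese and in lean mice. The obese group were genetically obese (ob/ob) animals, in which the satiety hormone leptin is not functional, and the lean group wild-type (WT). All tumors arose from KPC1199 cells, a mouse pancreatic ductal adenocarcinoma (PDAC) line placed in the pancreas, so that the implanted cells were the same in both groups and the host differed. Each group had 3 libraries of total RNA from whole tumor tissue, named here by the number in their titles: lean 1, 2 and 3, and obese 1, 3 and 4. Age, sex, diet and the time of growth are not in the labels. Nor do the labels tie the libraries to separate animals, so a p-value here reflects only how far these samples scatter, part of which may be technical.

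Lipid-associated macrophages are tissue macrophages that take up and digest lipid from dying cells, lipoproteins or stressed fat cells, and they are best known from obese adipose tissue and from tumors. In these cells the surface receptor TREM2 binds lipids and lipoproteins and signals through an adaptor protein, and the genes for lysosomal, lipid-carrying and matrix-binding proteins are switched on with it. Several of the 7 genes are also made outside macrophages: tumor epithelial cells and fibroblasts can express Spp1, Cd9, Lgals3 and Fabp5, and Apoe is made by many cell types. Other macrophage markers and markers of other cell types were not analysed here, so the label could be checked only through the 7 genes themselves.

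The 7 genes did not differ between hosts in 1 common direction. Fabp5 and Gpnmb rose in tumors of obese hosts, 2.23-fold and 1.94-fold, and Spp1, which codes for the secreted protein osteopontin, fell 1.79-fold. The Gpnmb call was lost when any of 4 libraries was left out. Trem2, Cd9, Lgals3 and Apoe did not pass the test. Thus 2 of 7 rose, 1 fell and 4 were not called, with a Benjamini-Hochberg adjusted p under 0.05 in edgeR's quasi-likelihood test as the call. Over all genes tested 20.8% were called, 10.3% higher and 10.6% lower in obese hosts, against 42.9% of the 7. This is no independent comparison, because the 7 genes were proposed with earlier results of these data known. At an unadjusted p under 0.05 in the same test, 36.2% of all genes tested and 3 of the 7 passed. The median log2 fold change (obese minus lean) was 0.25 over the 7 genes and 0.01 over all genes tested, whose middle quartiles ran from -0.30 to 0.33. In bulk tissue, fewer cells of a type and less RNA per cell cannot be told apart.

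**Figure D1:**
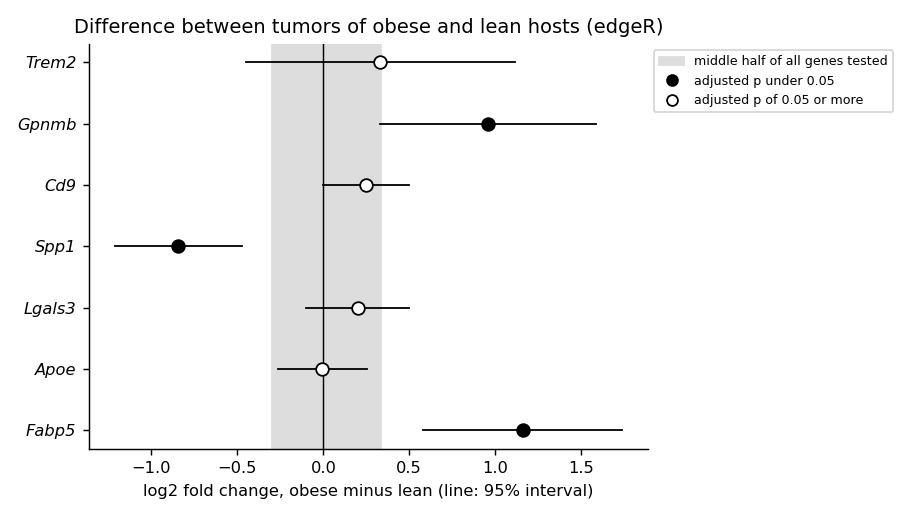
Log2 fold change of each gene between tumors of obese and lean hosts (horizontal axis, obese minus lean), with lines for the 95% interval and a grey band for the middle quartiles of all genes tested. Filled points mark the 3 genes that passed the test: Gpnmb at 0.96 and Fabp5 at 1.16 lie right of the band, and Spp1 at -0.84 lies left of it.

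The receptor Trem2 (ENSMUSG00000023992.14) was scarce in every tumor. Its RefSeq gene lies on chromosome 17 at 48346401 to 48352276 (assembly GRCm38.p6, gene matched by symbol, as for the others below). The lean libraries held 17, 20 and 20 counts and the obese libraries 26, 29 and 22, in the order of their numbers. As library-scaled counts (CPM, with TMM factors), these were 2.02, 2.84 and 2.50 in lean and 3.05, 3.55 and 2.65 in obese tumors. The groups overlapped, since obese 4 lay below lean 2. The means were 2.45 ± 0.413 and 3.08 ± 0.448 CPM (SD, n = 3 each), with a log2 fold change of 0.33 (SE 0.35, edgeR adjusted p = 0.534). The 95% interval of the fold ran from 0.733 to 2.16, so neither equal levels nor a doubling lay outside it.

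Counting error alone was of this order for Trem2. Within the groups the variance of its counts was 0.541 times that of counting error alone. The 77 counts in obese against 57 in lean libraries gave a ratio of 1.27, with an exact (Clopper-Pearson) 95% counting interval of 0.889 to 1.82. A moderate difference in Trem2 was therefore not detectable at this depth.

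Gpnmb (ENSMUSG00000029816.10; chromosome 6, 49036518 to 49058182) codes for a transmembrane glycoprotein of lysosomes and the cell surface that lipid-laden macrophages make in large amounts. Its level was 10.8, 4.26 and 7.63 CPM in lean 1, 2 and 3 and 14.4, 14.3 and 15.7 CPM in obese 1, 3 and 4. All obese libraries lay above all lean ones. The lean libraries were widely spread and the obese libraries close together: the means were 7.57 ± 3.27 and 14.8 ± 0.764 CPM (SD, n = 3 each), a coefficient of variation of 43.2% against 5.16%. The obese libraries held 123, 117 and 130 counts, for which counting error alone would on average give a wider spread. Their closeness is therefore not read as a trait of obese tumors. The log2 fold change was 0.96 (SE 0.28, edgeR adjusted p = 0.0371). Of the 1474 genes called higher, 514 had a larger fold.

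The Gpnmb call was lost in 4 of the 6 fits that left out 1 library. The adjusted p (edgeR) was 0.0909 without lean 2, 0.0982 without lean 3, 0.0841 without obese 1 and 0.0937 without obese 4, with log2 fold changes of 0.68, 0.96, 0.98 and 0.91. It passed without lean 1 (log2 fold change 1.30) and without obese 3 (0.99).

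Cd9 (ENSMUSG00000030342.8; chromosome 6, 125460266 to 125494760) codes for a tetraspanin, a membrane protein that organises other surface proteins and marks many cell types besides macrophages. Its levels were 215, 181 and 185 CPM in lean 1, 2 and 3 and 230, 204 and 257 CPM in obese 1, 3 and 4. Obese 3 lay below lean 1, so the groups overlapped. With total counts in place of TMM factors they just separated, at 214 CPM in obese 3 and 213 CPM in lean 1. The means were 194 ± 18.6 and 230.3 ± 26.2 CPM (SD, n = 3 each), and the log2 fold change of 0.25 (SE 0.11) did not pass the test (edgeR adjusted p = 0.144). The 95% interval of the fold, 0.997 to 1.42, leaves room for no more than a moderate rise. The RefSeq table lists 2 other genes, Gm26728 and Gm28809, that overlap the span of Cd9, and without known strand handling their reads cannot be told apart from those of Cd9.

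**Figure D2:**
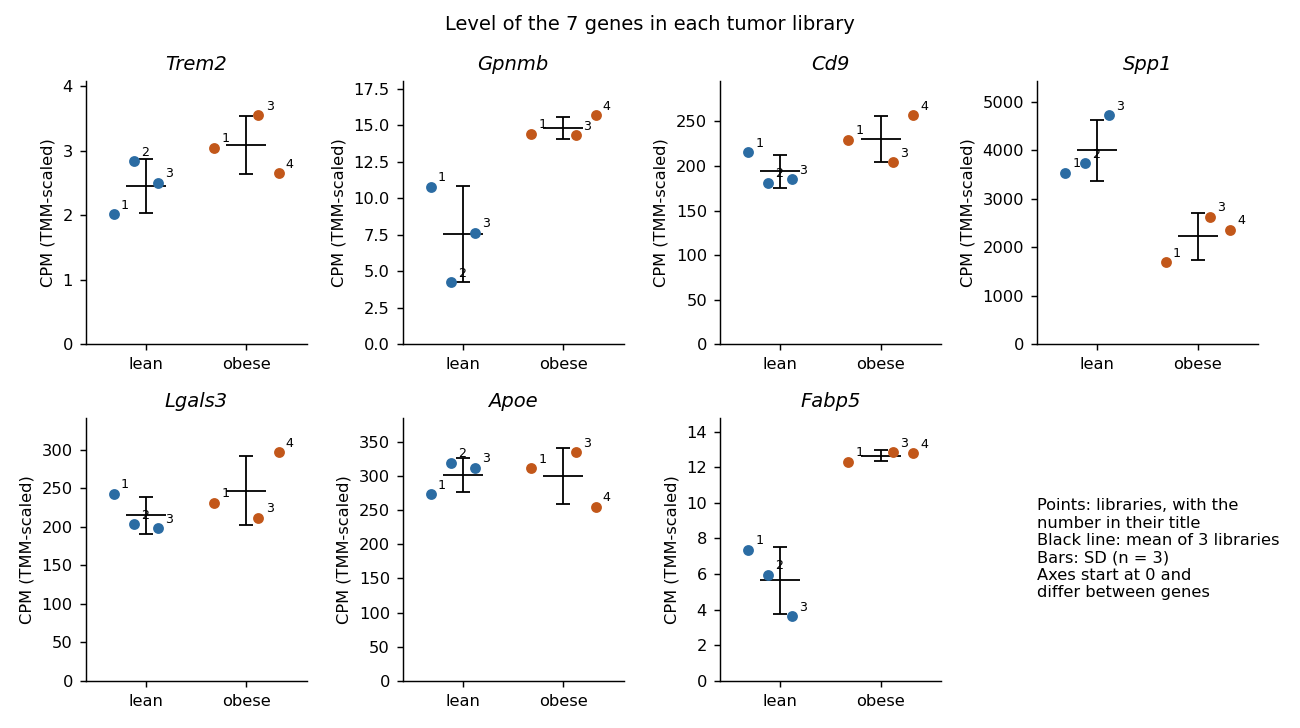
Level of each gene in CPM (vertical axes, from 0, different for each gene) in the 3 lean and 3 obese tumor libraries. Points are libraries labelled with their number, black lines the group means and bars the SD (n = 3): the groups are apart for Gpnmb, Fabp5 and Spp1 and overlap for Trem2, Cd9, Lgals3 and Apoe.

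Spp1 (ENSMUSG00000029304.14; chromosome 5, 104435111 to 104441053) was the member that fell. Osteopontin, its product, is a secreted phosphoprotein that binds integrins and CD44 and is made by macrophages, by tumor epithelium and by other cells. The lean libraries stood at 3536, 3733 and 4720 CPM and the obese libraries at 1692, 2633 and 2358 CPM. Every obese library lay below every lean one, with obese 1 the lowest and lean 3 the highest. The lean mean was 3997 ± 634 CPM and the obese mean 2228 ± 484 CPM (SD, n = 3 each). The log2 fold change was -0.84 (SE 0.17, edgeR adjusted p = 0.0081), with a 95% interval of -1.21 to -0.47. Of the 1517 genes called lower, 589 fell by more.

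With 14429 to 37715 counts in a library, Spp1 was limited by the spread between libraries and not by depth. Within the groups the variance of its counts was 846 times that of counting error alone. Because of this abundance, Spp1 held 82.5% to 86.9% of the summed counts of the 7 genes in lean libraries and 67.8% to 77.1% in obese ones. The sum of all 7 therefore follows Spp1. It was 0.424% to 0.520% of all counts in lean and 0.253% to 0.358% in obese libraries. The other 6 genes together took 0.0679% to 0.0743% in lean and 0.0812% to 0.0838% in obese libraries, the opposite order. Among these 6, Apoe, Cd9 and Lgals3, none of them called, held most of the counts. The shares are not corrected for transcript length, and no test was made on them. How often sums of other genes separate the groups was not counted.

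Lgals3 (ENSMUSG00000050335.17; chromosome 14, 47373860 to 47386167) codes for galectin-3, a sugar-binding lectin that is abundant in macrophages, where it is also known as Mac-2, and in epithelial tumors. Its levels were 243, 203 and 198 CPM in lean 1, 2 and 3 and 232, 212 and 297 CPM in obese 1, 3 and 4. Obese 4 was the highest of the 6 libraries, while obese 1 and obese 3 lay below lean 1. The log2 fold change of 0.20 (SE 0.14) did not pass the test (edgeR adjusted p = 0.319), with means of 215 ± 24.6 and 247 ± 44.7 CPM (SD, n = 3 each).

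Of the lipid carriers, Apoe was not called and Fabp5 rose. Apoe (ENSMUSG00000002985.16; chromosome 7, 19696244 to 19701310) codes for apolipoprotein E, the lipoprotein component that macrophages secrete as they export cholesterol and that TREM2 binds. It stood at 273, 319 and 312 CPM in lean 1, 2 and 3 and at 311, 335 and 255 CPM in obese 1, 3 and 4. The obese libraries spanned the whole lean range, with obese 3 the highest and obese 4 the lowest of all 6. The means were 301 ± 24.7 and 300.2 ± 41.0 CPM (SD, n = 3 each), and the log2 fold change was -0.0049 (SE 0.12, edgeR adjusted p = 0.981). The 95% interval of the fold ran from 0.832 to 1.19.

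Fabp5 (ENSMUSG00000027533.10; chromosome 3, 10012585 to 10016610) codes for a small cytosolic protein that binds fatty acids and delivers them within the cell; skin epithelium, macrophages and many carcinomas make it. The lean libraries held 62, 42 and 29 counts and the obese libraries 105, 105 and 106. In CPM these were 7.36, 5.96 and 3.63 in lean and 12.3, 12.8 and 12.8 in obese tumors. The 3 obese libraries were nearly level and all lay above lean 1, the highest lean library. With 105 or 106 counts each, counting error alone would on average spread them more, so their closeness is not read as a trait. The means were 5.65 ± 1.88 and 12.6 ± 0.295 CPM (SD, n = 3 each), and the log2 fold change was 1.16 (SE 0.26, edgeR adjusted p = 0.0135). Its 95% interval ran from 0.58 to 1.74.

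Fabp5 passed the test in each of the 6 fits that left out 1 library, with log2 fold changes of 0.92 to 1.40 and adjusted p-values (edgeR) of 0.0117 to 0.0478. Of the 1474 genes called higher, 353 had a larger fold. Fabp5 has near-identical copies in the mouse genome, and the RefSeq table lists 1 other gene whose symbol starts with Fabp5. The authors' rule for reads that match several places is not given in the sources used here. Reads of Fabp5 and of its copies may therefore be split or mixed in these counts.

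The groups did not overlap for 3 of the 7 genes, Spp1, Gpnmb and Fabp5, or 42.9%. Over all genes tested the groups did not overlap for 40.3%, so this count is near the background. The 3 genes are those that also passed the test.

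**Figure D3:**
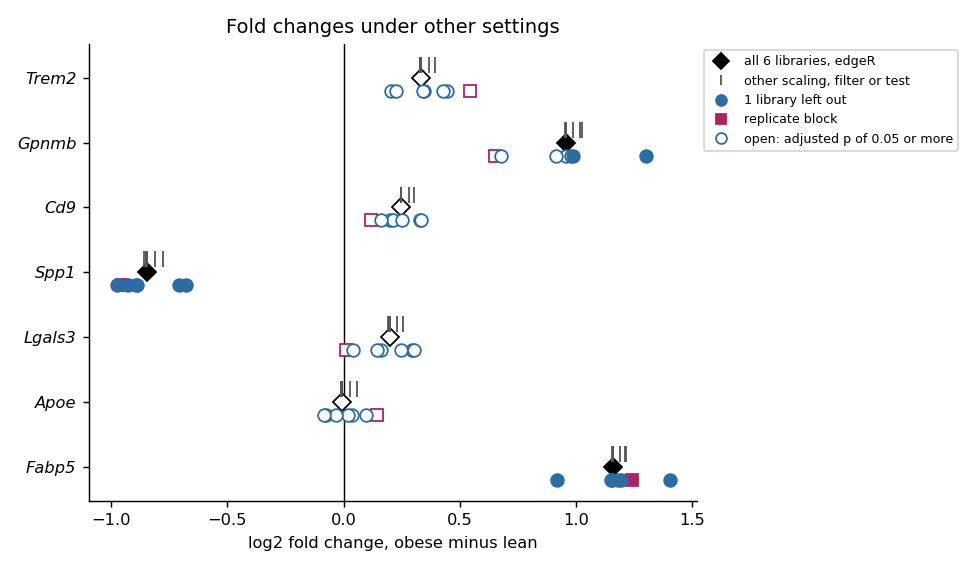
Log2 fold change of each gene (horizontal axis, obese minus lean) with all 6 libraries (diamonds), under other scalings, filters and tests (ticks), with 1 library left out (circles) and with the replicate number as a block (squares). Open diamonds, circles and squares did not pass an adjusted p of 0.05, and ticks do not show the call: Fabp5 and Spp1 stay filled throughout, and Gpnmb is open in 4 of its 6 circles and in its square.

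The balance between the members was then taken within each library, as the log2 ratio of the counts of 2 genes, which does not depend on how libraries are scaled. There are 21 such pairs. The exact permutation test (two-sided) cannot go below 0.1 with 3 against 3 libraries, and after adjustment over the 21 pairs the smallest value was 0.162, so no pair could pass and the differences are given by size. All 6 ratios to Spp1 were higher in every obese library than in any lean one. They share the values of Spp1, which fell and by itself separated the groups: of the 14276 other genes with a count in every library, 68.8% had a ratio to Spp1 that did not overlap between the groups. The separation is therefore no result about the 6 genes, and only the sizes are described.

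With all 6 libraries, Fabp5 over Spp1 had the largest difference of the 21 pairs. Its log2 ratio was -8.91, -9.29 and -10.3 in lean 1, 2 and 3 and -7.10, -7.68 and -7.53 in obese 1, 3 and 4, a mean difference of 2.08 or 4.22-fold. Gpnmb over Spp1 differed by 1.92 (3.80-fold). Without lean 3 this order was reversed, at 1.66 for Fabp5 and 1.86 for Gpnmb. The ratio to Spp1 differed by 1.19 for Trem2, 1.10 for Cd9, 1.05 for Lgals3 and 0.85 for Apoe, beside a log2 fold change of -0.84 for Spp1 itself.

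**Figure D4:**
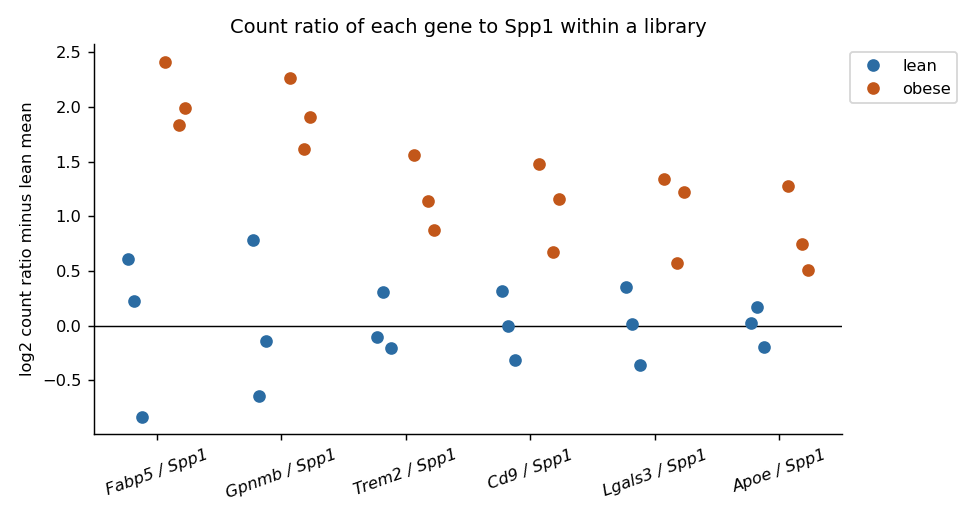
Log2 count ratio of 6 genes to Spp1 within each library (vertical axis, as the difference from the lean mean), for 3 lean and 3 obese libraries (points). In each of the 6 ratios the obese points lie above all lean points, by a mean of 2.08 for Fabp5 and 0.85 for Apoe.

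Among the 15 pairs without Spp1, the groups did not overlap in 7. Over all pairs of genes with a count in every library, Spp1 left out, this was so for 38.1%, so the count is not far from the background. In 6 of the 7 Fabp5 or Gpnmb was higher relative to Apoe, Cd9 or Lgals3, by 0.82 to 1.23 on the log2 scale. Fabp5 and Gpnmb by themselves separated the groups, so these 6 pairs largely restate their rise. How often other genes' ratios to Fabp5 or Gpnmb separate the groups was not counted. The remaining pair of the 7 was Trem2 over Apoe. Its log2 ratio was -7.08, -6.81 and -6.96 in lean 1, 2 and 3 and -6.67, -6.56 and -6.58 in obese 1, 3 and 4, a mean difference of 0.34 (exact permutation test, p = 0.1, adjusted p = 0.162). With 17 to 29 Trem2 counts per library, this difference lies within the counting error of Trem2. Fabp5 over Gpnmb differed by 0.15, with lean libraries from -1.07 to 0.49 on both sides of the obese ones. Cd9 over Lgals3 was the steadiest of all pairs, with log2 ratios between -0.21 and -0.01 in all 6 libraries and a difference of 0.06.

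Within each group, Cd9 and Lgals3 varied as 1 pair and Trem2 and Apoe as an opposed pair, with Trem2 inside its counting error. In lean tumors, lean 1 had the highest Cd9 and Lgals3 and the lowest Trem2 and Apoe of the 3 libraries. In obese tumors, obese 4 had the highest Cd9 and Lgals3 and again the lowest Trem2 and Apoe, and obese 3 had the highest Trem2 and Apoe with the lowest Cd9 and Lgals3. Over the 6 libraries, the deviations of log2 CPM from the group mean correlated at 0.96 between Cd9 and Lgals3 and at 0.91 between Trem2 and Apoe. Across the pairs they correlated at -0.99 for Apoe with Lgals3, -0.96 for Apoe with Cd9, -0.97 for Trem2 with Cd9 and -0.88 for Trem2 with Lgals3.

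These values describe 6 libraries that every gene shares, and fixing the 2 group means leaves only 4 free deviations per gene. The pattern was read from the 21 pairs of members, and how often other genes correlate this closely was not counted. With total counts in place of TMM factors the 6 correlations among these 4 genes had the same signs, at 0.95 and 0.92 within the pairs and -0.84 to -0.92 across them. Trem2 rests on 17 to 29 counts per library, so its part in the pattern lies within counting error. For Apoe, Cd9 and Lgals3, with 1277 to 2736 counts per library, the variance within groups was 31.3, 19.4 and 44.8 times that of counting error alone. Whether cell composition moved with these pairs was not tested.

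**Figure D5:**
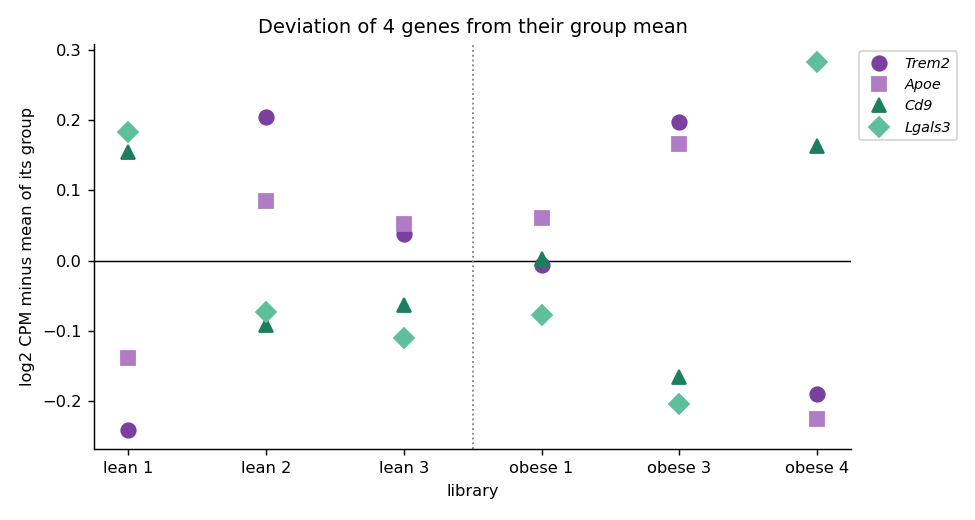
Deviation of log2 CPM from the mean of the library's own group (vertical axis) for Trem2, Apoe, Cd9 and Lgals3 in each of the 6 libraries (horizontal axis, dotted line between the groups). In lean 1 and obese 4, Cd9 and Lgals3 lie above the line at 0 and Trem2 and Apoe below it, and in obese 3 and lean 2 the order is the opposite. The deviations of Trem2 lie within counting error.

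Spp1, Fabp5 and Gpnmb followed neither pair as closely. Fabp5 was highest in lean 1 among the lean libraries, with Cd9 and Lgals3. Its obese libraries were nearly level, at 105 or 106 counts each, so their order is not read as a pattern. Its deviations correlated at 0.41 with Cd9, 0.44 with Lgals3, -0.32 with Trem2 and -0.33 with Apoe. Those of Gpnmb correlated at 0.61 with Cd9, 0.47 with Lgals3, -0.79 with Trem2 and -0.53 with Apoe. Those of Spp1 correlated at 0.28 with Trem2, 0.14 with Apoe, -0.36 with Cd9 and -0.20 with Lgals3, values too weak over 6 libraries to describe a relation. Across all 6 libraries, group difference included, Spp1 and Fabp5 were the most opposed of the pairs with Spp1 (Pearson's r -0.89). This in part restates that 1 fell and the other rose. With the group means removed, their deviations correlated at -0.49, again weak over 6 libraries.

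The 6 libraries held 7122533 to 8521244 counts and 15461 to 15534 genes with a count. TMM factors ran from 0.959 to 1.05. No member had a count of 0 in any library.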

How the data were processed

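Per the labels' protocols, total RNA of pancreatic tumor tissue was ribosome-depleted with a RiboErase kit. The authors deposited raw counts per gene for 6 libraries; CASAVA, STAR and Subread with the mouse build GRCm38 are named in the submitters' processing notes, while their versions and strand settings were not given in the sources used here. All columns were matched to samples by title (0 unmapped). Titles starting with OB were taken as obese and the others, which start with ND, as lean. What ND stands for is not given in the labels.

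The 7 members were taken by Ensembl ID with their symbols; 7 of 7 symbols were found in the RefSeq table (GRCm38.p6), which carries 0 Ensembl IDs, so genes named otherwise are given by ID. No sequences were used here. The rule for the members uses no measured value, but members and lists were proposed with earlier results of these data known. All 7 members were named whatever their values. The 2 other genes were named by their measured correlation with Trem2.

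The obese and lean counts were compared in R 4.3.3 by edgeR 4.0.16 (default expression filter, minimum count 10 and minimum total 15, which removed 1298 genes; TMM factors; quasi-likelihood F test, two-sided, no covariate; Benjamini-Hochberg adjustment over all 14348 genes). The standard error is the log2 fold change divided by the root of F, and intervals use the fit's degrees of freedom. Log2 CPM used a prior count of 2. Counting intervals cover counting error only. The fit was tested on simulated data. As alternatives, scaling was set to upper-quartile or RLE factors or to total counts, the filter was dropped or set to 1 CPM in 3 libraries, the test was replaced by limma-voom (limma 3.58.1), DESeq2 1.42.0 or a robust edgeR fit, title numbers were used as a replicate block, and each library was left out.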

Additional observations from a re-analysis of the deposited data

How the results depend on the processing

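Spp1 and Fabp5 kept direction and call in all 15 alternatives each (log2 fold changes -0.97 to -0.68 and 0.92 to 1.40), and Trem2 (0.21 to 0.54), Cd9 (0.12 to 0.33) and Lgals3 (0.012 to 0.30) stayed uncalled with a positive sign in theirs. Without 1 library, Trem2 was lowest without lean 1 (0.21), and Cd9 (0.16) and Lgals3 (0.043) without obese 4. Gpnmb kept its sign in all 15 and its call in 10. Apoe, near 0, changed sign without a call with upper-quartile factors (0.028), with total counts only (0.058) and, among fits without 1 library, which gave -0.084 to 0.098, without lean 2, lean 3 or obese 4. Leaving out 1 library gave 2 or 3 called members and 1 or 2 called higher, the lower number without lean 2, lean 3, obese 1 or obese 4, where Gpnmb (0.68 to 1.30 over the 6 fits) lost its call. In the same fits 1179 to 3066 genes were called over all genes tested, against 2991. The lowest share was 7.99%, without lean 2, and leaving out obese 1, lean 3 or obese 4 gave 1461, 1541 or 1956 genes (9.92%, 10.4% or 13.2%). The cause of these shifts was not tested.

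The title numbers shared by the groups are 1 and 3, and deviations of like-numbered libraries correlated at 0.090 and 0.074 (unlike numbers -0.131 to 0.066), which does not settle whether numbers pair the samples. With the replicate block, whose contrast rests on these 4 libraries, 2 members were called, 1 of them higher, and 2087 genes in all (14.5%). Gpnmb was at 0.65 (edgeR adjusted p = 0.132) and Apoe at 0.15, and Spp1 and Fabp5 were called.

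The planned lists of other macrophage, lysosome and lipid genes, and member levels relative to macrophage genes, were fixed by symbol and not run, because the RefSeq table used here pairs 0 Ensembl IDs with symbols. Depth limits Trem2 most, with at most 29 counts in a library.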

Other observations

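The 2 genes outside the 7 whose log2 CPM followed that of Trem2 most closely over the 6 libraries were ENSMUSG00000087543.1 (Pearson's r 0.992) and ENSMUSG00000012428.9 (Pearson's r 0.989). Of the 14341 other genes tested, 131 had an r above 0.9 with Trem2. All values come from the same 6 libraries, and with this many genes and so few libraries high values are frequent, so these are given as a description only.

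In lean tumors the 2 genes that rose in obese hosts differed in which library was lowest: Gpnmb was lowest in lean 2 (30 counts) and Fabp5 in lean 3 (29 counts), while lean 1 was the highest for both (91 and 62 counts).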
